A study of Homo sapiens with 7 samples.

Results

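The tallest GATA6 peaks of LS174T cells were 431 regions, of 7562 peaks on chromosomes 1 to 22 and X and of 7568 in the whole list. They were chosen by 1 value of the deposited peak list, a pileup of at least 40 fragments at the summit, which is called the height here. Their heights and every score made from them are therefore given as a description, with no test. The other 7131 peaks on these chromosomes had heights from 6 to 39.

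LS174T is an established human colorectal carcinoma cell line. The study made 7 chromatin immunoprecipitation sequencing (ChIP-seq) libraries from it: 3 with an antibody against GATA6, 1 from input DNA without an antibody, and 1 each for the histone marks H3K27ac, H3K4me3 and H3K4me1. Cells of every group were grown in medium with 10% serum and cross-linked with 1% formaldehyde for 15 min, and the labels name no treatment, time course or genetic change. The list gives 1 value per peak and none per library, so no height has a spread between replicates, the depth of the libraries is unknown, and whether the 3 GATA6 libraries were pooled is not given in the sources used here. Because 1 cell line was used, nothing in these values shows how a height would vary between tumours or between cultures.

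GATA6 is a zinc-finger transcription factor that binds DNA at sites with a GATA core. It acts in the development and upkeep of endoderm-derived organs, the intestine among them, where it is known for its role in the dividing cells at the base of the crypt. In ChIP-seq, fragments held by the antibody pile up around a bound site. The height of the pile grows with how often the site is occupied in the cell population, and also with how well it is cross-linked, with its number of copies and with how readily its DNA is recovered, so height is not a measure of occupancy alone. The peaks lie on build hg19, for which no genome sequence or gene annotation was used here. Each is named by its position, and no base sequence, GATA motif or nearby gene is given.

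The upper end of the GATA6 list thinned out quickly. The 431 tallest peaks had a median height of 48 fragments, with an interquartile range of 43 to 57, while the peaks under 40 had a median of 15. A height of 50 was reached by 189 of them, 60 by 77, 70 by 31, 80 by 16 and 100 by 3. They were 5.70% of the peaks but held 15.4% of the fragments summed over all summits, and their 182645 bp were 8.76% of the covered bases.

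**Figure D1:**
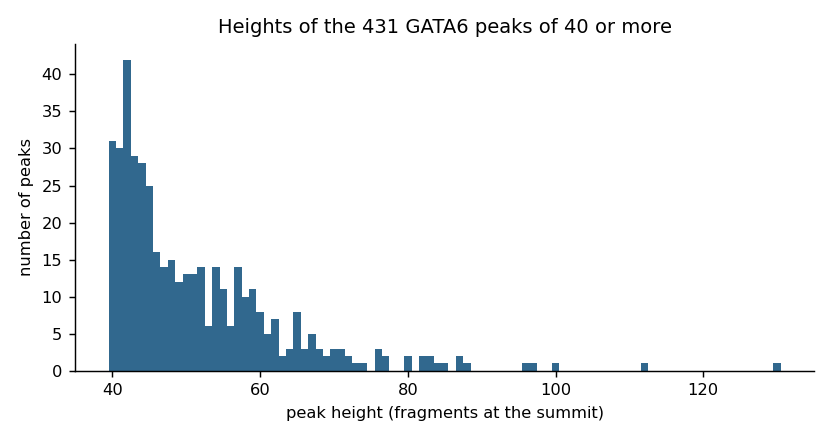
Histogram of the heights of the 431 peaks of 40 or more, in bins of 1 fragment, with height on the horizontal axis and the number of peaks on the vertical axis. Counts fall from 31 peaks at 40 fragments and 42 at 42 fragments to single peaks past 90, of which the tallest has 130.

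The threshold cuts a continuous slope. At heights of 38 and 39 there were 48 and 32 peaks, and at 40 and 41 there were 31 and 30. The 80 peaks just under the threshold had a median width of 367 bp, a median local background of 1.60 fragments and a median distance of 23.7 kb to another peak. The 61 just inside it had 385 bp, 1.75 fragments and 36.5 kb. The 95% Poisson interval for 40 fragments ran from 28.6 to 54.5, so peaks on both sides of the threshold could not be told apart by counting error. Poisson intervals describe counting error alone, as fragments were not tagged with molecular identifiers and some may be copies of 1 molecule.

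The 3 tallest peaks reached 100 fragments or more. The tallest lay at chr3:190039862-190041084, with 130 fragments (95% Poisson interval 109 to 154), and had no other peak within 100 kb. Its nearest neighbour, 124 kb away, was itself tall, with 44 fragments. The second, of 112 fragments at chr6:109225053-109225452, had a peak of 36 fragments 993 bp from its summit. The third, of 100 fragments at chr1:184394818-184395393, had 4 other peaks within 100 kb, of which the nearest had a height of 21. The interval of the third, 81.4 to 122, overlapped those of both others, so the order among them was not resolved.

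The rest of the 10 tallest had heights from 84 to 97. Chromosome 1 held 3 of them, at 239376090-239376647 (97 fragments), 232817988-232818439 (96) and 207115092-207115528 (87). Each of these had another peak within 4 kb, with heights of 33, 14 and 9. The peak at chr13:27530553-27531068, with 88 fragments, lay 4787 bp from one of 37. The equally tall peak of 87 fragments at chr17:36070273-36070638 was farther from others, at 34.9 kb from one of only 7. The list was completed by 85 fragments at chr12:59318893-59319424, 474 bp from a peak of 13, and 84 at chr15:90667700-90668283, 88.9 kb from a peak of 57. Chromosome 1 was thus the only one with more than 1 of these 10 peaks, and the neighbours of these 10 ranged from a height of 7 to 57.

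Local background is the level that the caller set against each height, computed here as height divided by fold enrichment. It was higher at the tallest peaks, with a median of 1.92 fragments (quartiles 1.05 and 2.27). At peaks under 40 the median was 1.05 (quartiles 0.829 and 1.92), so the ranges overlapped. The caller scored height against this background, so low peaks were listed mostly over low background. Its median was 0.593 fragments at heights of 6 to 9 and 0.998 at 10 to 14. The comparison with peaks under 40 is therefore tied to the rule and is a description only. Medians were higher at the tallest peaks on 19 of 23 chromosomes, lower on chromosomes 13, 16 and X, which held 8, 4 and 2 of them, and equal within 0.0005 of their value on 1, chromosome 21. Peaks with heights of 30 to 39 had a median background of 1.40 fragments (95% order-statistic interval 1.40 to 1.57). The interval for the tallest peaks was 1.57 to 2.00.

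Background took preferred values. It had a floor of 0.489 fragments, and many peaks sat on whole multiples of 0.998 fragments. Among the tallest peaks 235 (54.5%, exact binomial interval 49.7 to 59.3) sat on such a step, against 40.2% of peaks under 40 and 46.3% of peaks of 30 to 39 (42.1 to 50.4). Steps of 3 or more were found at 89 of the tallest peaks (20.7%), at 8.08% of peaks under 40 and at 16.6% of peaks of 30 to 39. The floor was found at 4 of the tallest peaks (0.928%), at 6.52% of peaks under 40 and at 1.04% of peaks of 30 to 39. Steps of 2 or more were thus more common at tall peaks than under 40, a comparison tied to the rule in the same way. The part of this background in their height was not tested.

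**Figure D2:**
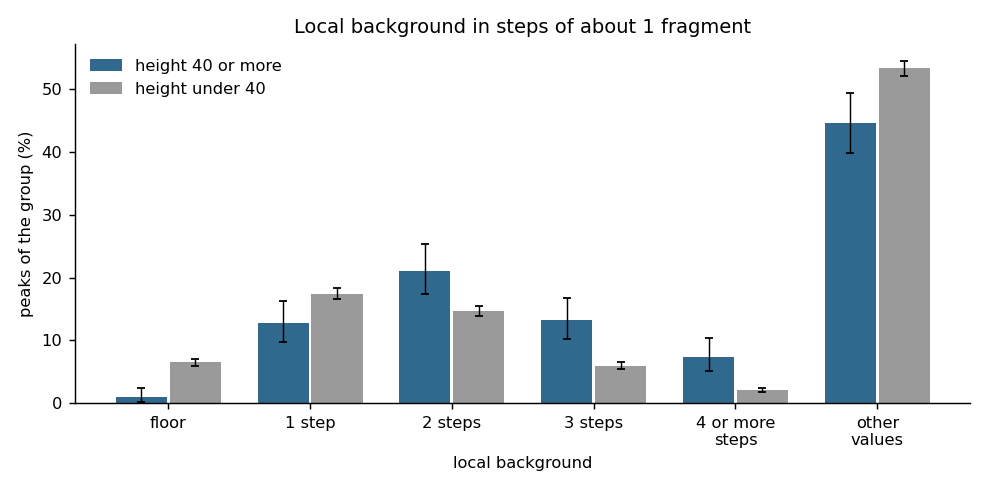
Share of peaks (vertical axis, percent of the group) at each kind of local background (horizontal axis), for 431 peaks of 40 or more (blue) and 7131 under 40 (grey); bars start at 0 and whiskers are exact 95% binomial intervals. The blue bars are higher at 2, 3 and 4 or more steps, and lower at the floor, where they stand at 0.928% against 6.52%.

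Among the tallest peaks themselves, height moved little with background, with a Spearman rho of 0.10 over 431 peaks, against 0.48 over all 7562. Both come from the same summits, and the rho is a description. The 431 peaks were cut at a height of 40, and a narrower range of heights can by itself lower a rho. The values over 431 and over 7562 peaks are therefore not like for like. The highest backgrounds, 6.99 and 6.98 fragments, were at chr10:97026535-97026856 (height 51, fold 7.30) and chr6:16755196-16755476 (height 59, fold 8.45). Backgrounds of 5.99 followed at chr1:192908623-192908931, chr1:116353511-116354234 and chr18:20681801-20682135, with heights of 57, 44 and 58. A fold under 10 was found at 10 of the tallest peaks (2.32%), these 5 included. It was far more common at peaks under 40 (24.8%) and over all peaks (23.5%), and was found at 5.55% of peaks of 30 to 39. The 10 peaks were tall in fragments and modest over their surroundings.

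The opposite kind was tall over almost no background. The 4 tall peaks at the floor were chr7:73027074-73027409 with 68 fragments and a fold of 138.96, chr17:2670673-2671039 with 42 and 85.83, chrX:90363638-90364131 with 41 and 83.79, and chr1:66229757-66230169 with 40 and 81.74. None of these 4 had a neighbour within 70 kb, and their nearest peaks had heights from 12 to 35. The next lowest background, 0.524, was shared by 7 tall peaks with heights from 41 to 55. Their nearest peaks lay from 5.22 to 1273 kb away, 2 of them within 10 kb, and had heights from 10 to 37. The fold, which ran from 7.30 to 138.96 with a median of 30.1, therefore ordered the tallest peaks differently from their height.

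Tall GATA6 peaks were wide. At the median they covered 393 bp (quartiles 337 and 470 bp), against 245 bp (200 and 307 bp) under 40. The median was higher on all 23 chromosomes, and 84 tall peaks (19.5%) reached 500 bp, against 2.43% of the others. Peaks of 30 to 39 lay between, with a median of 344 bp and 9.88% reaching 500 bp, and against all heights of 20 to 39 the gap in medians was 82 bp rather than 148 bp. None had the smallest width of 175 bp, found at 683 peaks under 40, and the narrowest was 252 bp. Width comes from the same pile of fragments as the height that chose these peaks. At equal background the gap was the same in direction: on 2 steps, 386 bp against 261 bp, and on 3 steps, 380 bp against 260 bp.

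Within the tallest peaks, width rose loosely with height (Spearman rho 0.27, against 0.66 over all peaks). The range of heights is cut in the first of these values, so they are not like for like. Median widths were 375 bp at heights of 40 to 44, 406 bp at 50 to 59, 471 bp at 60 to 69 and 441 bp at 70 or more. The widest was also the tallest, at 1223 bp. The next, chr3:167809041-167810168, covered 1128 bp with only 41 fragments. It was followed by chr17:10380659-10381627 (969 bp, 64 fragments), chr11:59474047-59474988 (942 bp, 57 fragments) and chr2:28491895-28492757 (863 bp, 59 fragments). The narrowest 5 ran from 252 to 266 bp, and one of them, chr3:15140563-15140822, reached 57 fragments within 260 bp. Peaks of like height thus differed several-fold in width.

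**Figure D3:**
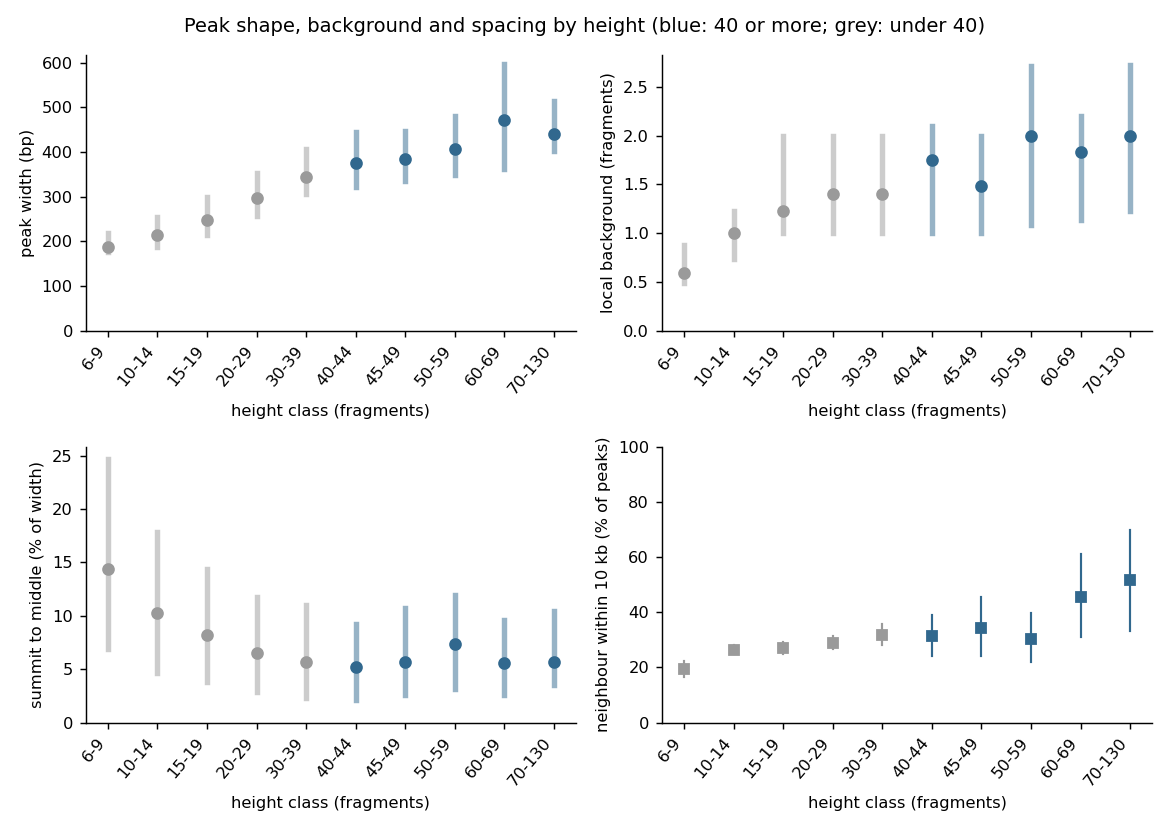
Shape, background and spacing by height class (horizontal axes, fragments), with classes of 40 or more in blue and lower ones in grey: width in bp, local background in fragments and distance from summit to middle in percent of width, each as a median (point) with its interquartile range (bar), and the share of peaks with a neighbour within 10 kb, with exact 95% binomial intervals. Width rises from a median of 188 bp at 6 to 9 fragments to 441 bp at 70 or more, and the share with a neighbour from 19.3% to 51.6%.

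Summits of the tallest peaks lay near the middle. The median summit stood at 49.2% of the width, and 312 of 431 (72.4%, exact binomial interval 67.9 to 76.6) lay in the middle 20% of the peak, against 55.7% of peaks under 40. Peaks of 30 to 39 had 71.8%, so the centring did not differ between the tallest peaks and those just below them beyond counting error. Measured in bp, the tallest peaks were not better centred: the median distance from the middle was 22.5 bp, against 21.5 bp under 40. Their summits were closer to the middle only as a share of a greater width.

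A few tall peaks leaned to one side. Only 2 of 431 (0.464%) had a summit in the outer 20% at either end, against 307 of 7131 (4.31%) under 40 and 4.09% of all peaks. Peaks of 30 to 39 had 3 of 577 (0.520%), so such summits were about as rare in the class just below. The 2 tall peaks were chr11:85845776-85846623, with its summit at 19.2% of 848 bp, and chr11:61813362-61814052, at 80.7% of 691 bp. Next came chr7:112212427-112213174 (78.3%), the 1128 bp peak of chromosome 3 (315.5 bp from its middle) and chr11:66118603-66119054 (77.8%). Except for the last, of 452 bp, these 5 were over 600 bp wide. Whether they held more than 1 summit is not shown by the list, which gives 1 position per peak.

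The spacing of peaks was not part of the rule, although the list holds only peaks that passed the caller. The nearest other peak lay at a median of 27011 bp from a tall summit (quartiles 4617 and 115145 bp), against 44812 bp (8856 and 155294 bp) from the summit of a peak under 40. At peaks of 30 to 39 the median was 28855 bp (95% order-statistic interval 21226 to 34661), which includes that of the tallest. Against all heights of 20 to 39 the difference in medians was −7165 bp, where it was −17801 bp against all peaks under 40. The median was shorter on 19 of 23 chromosomes and longer on chromosomes 3, 5, 14 and X. Within 10 kb lay a neighbour of 149 tall peaks (34.6%, exact binomial interval 30.1 to 39.3), where the share over all peaks was 27.2% and that under 40 was 26.8%. Peaks of 30 to 39 had 31.7% (27.9 to 35.7), an interval that overlaps that of the tallest. No test of these differences was made, since neighbouring peaks are not independent.

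Neighbours were most common at the very top. The share with a peak within 10 kb was 31.3% at heights of 40 to 44, 34.1% at 45 to 49, 30.4% at 50 to 59, 45.7% at 60 to 69 and 51.6% at 70 or more. The last class holds 31 peaks, and its interval of 33.1 to 69.8 includes the 34.6% of all tall peaks. Distance fell slightly as background rose, with a Spearman rho of −0.13 over the 431 peaks, given as a description. On 2 steps of background the median distance was 18.6 kb for tall peaks and 34.5 kb for the others. On 4 or more steps the order turned, with 63.4 kb for 32 tall peaks and 17.7 kb for 151 others. Shorter distances were therefore not found at every level of background.

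The wider surroundings were denser as well. Tall peaks had a median of 9 other peaks within 1 Mb on either side, against 7 for peaks under 40 and 8 for those of 30 to 39. Another tall peak lay within 1 Mb of 213 of them (49.4%, exact binomial interval 44.6 to 54.2), against 34.2% of peaks under 40 and 37.4% of peaks of 30 to 39 (33.5 to 41.5). Within 1 Mb, tall peaks thus had another tall peak beside them more often than lower peaks did. Another tall peak lay within 100 kb of 67 of them (15.5%, 12.3 to 19.3), against 9.84% of peaks under 40. Peaks of 30 to 39 had 13.9% (11.1 to 16.96), an interval that overlaps that of the tallest. At 100 kb the tallest peaks therefore did not differ from the class just below beyond counting error. Tall peaks near each other count for each other, so the 213 and the 67 are not separate cases and their intervals are too narrow. The counts were not repeated without chromosomes 1 and 17, which had the largest shares of tall peaks (9.39% and 11.3%). Tall peaks also had the higher background given above, and its part in these counts was not tested.

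The nearest neighbours of tall peaks were ordinary in height. Their median was 17 fragments (quartiles 12 and 25), against 16 (12 and 23) for the neighbours of peaks under 40, and the median was higher on 11 chromosomes, lower on 7 and equal on 5. The nearest peak was itself tall for 33 of 431 (7.66%, exact binomial interval 5.33 to 10.6), where the share over all peaks was 5.78%, a value inside that interval. The difference from peaks under 40 was 1.99 points (95% interval −0.34 to 4.92), which includes 0. Intervals of such differences carry the counting error of the first share alone, with the other taken as fixed. The difference was 2.65 points (0.34 to 5.30) at a threshold of 35. It was 3.07 points (0.36 to 6.57) without chromosomes 1 and 17, a choice made after seeing the data. Both of these intervals exclude 0, while those of every other setting tried include it. Tall peaks that are nearest to each other count for each other, so these intervals are too narrow and serve as a description. The median ratio of the neighbour's height to that of the tall peak was 0.36 within 1 kb and 0.33 between 100 and 500 kb. That ratio is low by the choice of tall peaks.

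**Figure D4:**
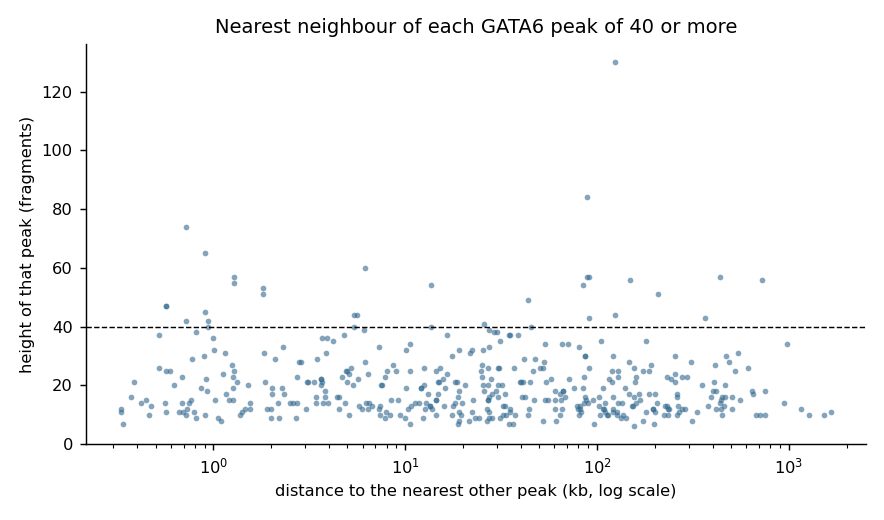
Each of the 431 peaks of 40 or more by the distance to its nearest other peak (horizontal axis, kb, log scale) and the height of that peak (vertical axis, fragments), with a dashed line at 40. Points lie mostly between 6 and 40 fragments at every distance, and 33 lie on or above the line.

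Within 1 kb the share of tall peaks with a neighbour did not differ from the list beyond counting error. A neighbour that close was found for 42 tall peaks (9.74%, exact binomial interval 7.11 to 12.9). The interval includes the 7.17% of peaks under 40 and the 7.31% of all peaks. Within 500 bp there was a neighbour for 9 tall peaks (2.09%, 0.959 to 3.93). That interval includes the 3.24% of peaks under 40 and the 3.17% of all peaks. Of the 42 neighbours, 22 were under 20 fragments and 8 (19.0%, exact binomial interval 8.60 to 34.1) were tall themselves, against 6.85% (4.82 to 9.40) for peaks under 40. The 8 make up 4 pairs, so they are not 8 separate cases.

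Tall peaks stood side by side in 10 pairs with summits within 10 kb, made up of 19 peaks, and 9 of the pairs had no lower peak in between. The closest pair, 565 bp apart, lay at chr17:63286136-63286539 and chr17:63286675-63287112, with 47 fragments each. On chromosome 10 the pair at 112617373-112617688 and 112618049-112618409 had 42 and 74 fragments, 719 bp apart. The pair 907 bp apart at chr1:160508925-160509595 and chr1:160509936-160510227 had 65 and 45 fragments, both over a background of 2.99. A second pair on chromosome 17, at 69628505-69628873 and 69629413-69629830, had 42 and 40 fragments. Poisson intervals of both heights overlapped in each of these pairs but the one on chromosome 10, whose intervals of 30.3 to 56.8 and 58.1 to 92.9 did not overlap.

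The other 6 pairs were spaced from 1287 to 6182 bp. At chr11:59727969-59728364 and chr11:59729191-59729662 the heights were 57 and 55 but the backgrounds 0.960 and 3.99, so that the folds differed, at 59.36 and 13.78. Chromosome 2 held a pair of 51 and 53 fragments from 54799419 to 54801775. It also held the only run of 3 tall peaks, of 45, 44 and 40 fragments between 173194793 and 173206115. Pairs on chromosome 21, at 40322450-40323101 and 40328826-40329198 (66 and 42 fragments), and on chromosome 3, at 141045135-141045457 and 141051296-141051649 (43 and 60 fragments), completed the set.

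Some tall peaks had only a slight peak beside them. Summits lay 330 bp apart at chr5:82872875-82873219, with 57 fragments beside 12, and at chr9:19202176-19202655, with 71 beside 11. At chr11:110176261-110176751 a peak of 41 fragments had one of 7 at 339 bp. At chr19:33857055-33857402 a peak of 43 had one of 16 at 371 bp, and at chr11:23811492-23811841 a peak of 47 had one of 21 at 388 bp. These 5 have the shortest distances among the tallest peaks and were picked after their values were seen.

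Others were isolated. The peak at chr1:36929818-36930153, with 48 fragments and a fold of 85.92, was 1657 kb from its nearest neighbour. It was followed by a peak on chromosome 8 at 56838707-56839034 (43 fragments, 1530 kb), chr16:23652583-23652881 (44 fragments, 1273 kb), chrX:90363638-90364131 (41 fragments, 1162 kb) and chr10:47075205-47075748 (71 fragments, 981 kb). The neighbours of the first 4 had heights of only 10 to 12. Their backgrounds were low, from 0.489 to 0.998 fragments, while the fifth had 2.10 fragments and a neighbour of 34. Height above 40 was thus reached in stretches with no other peak for over 1 Mb.

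The tallest peaks were unevenly shared among chromosomes. On chromosome 17, 30 of 265 peaks reached 40 fragments (11.3%, exact binomial interval 7.77 to 15.8), and on chromosome 1, 76 of 809 did (9.39%, 7.47 to 11.6). Over the other chromosomes together, the shares were 5.50% beside chromosome 17 and 5.26% beside chromosome 1, both below these intervals. At a threshold of 50 the difference for chromosome 17 shrank from 5.83 points to 1.71 points, with an interval of −0.35 to 4.87 that includes 0. Chromosome 11 followed with 32 of 390 (8.21%, 5.68 to 11.4), an interval that includes its counterpart of 5.56%. Peaks on a chromosome share local regions, so these intervals, 23 of which were computed, are too narrow.

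At the other end, chromosome X had 2 tall peaks of 168 (1.19%, exact binomial interval 0.144 to 4.23), at heights of 42 and 41. Chromosome 8 had 7 of 348 (2.01%, 0.812 to 4.10), chromosome 16 had 4 of 175 (2.29%, 0.63 to 5.75), chromosome 6 had 14 of 463 (3.02%, 1.66 to 5.02) and chromosome 4 had 17 of 501 (3.39%, 1.99 to 5.38). Each of these intervals lay below the share over the other chromosomes, which ran from 5.78% to 5.88%. Few tall peaks did not mean low ones: chromosome 6 held the second tallest peak of the list, and chromosome 16 held one of 83 fragments at chr16:85568983-85569445.

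**Figure D5:**
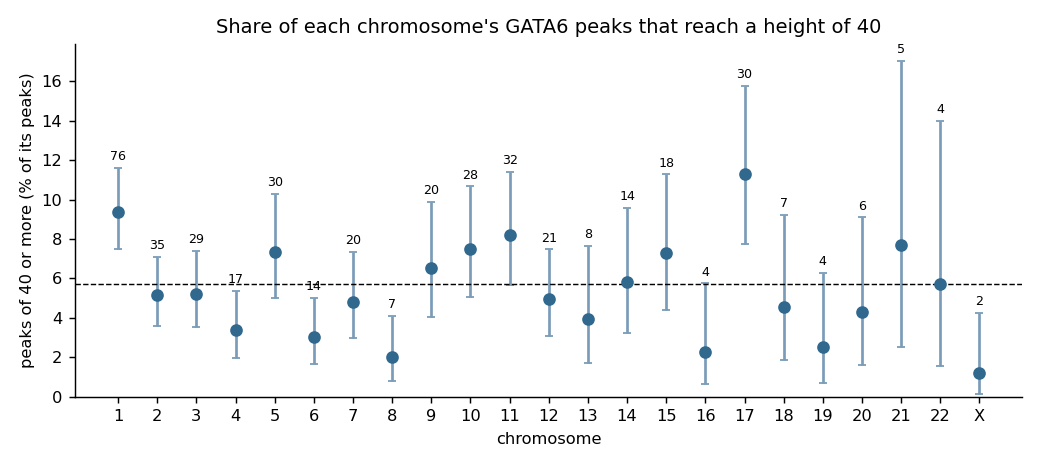
Share of each chromosome's peaks (vertical axis, percent) that have a height of 40 or more, by chromosome (horizontal axis), with exact 95% binomial intervals; numbers give the count of such peaks and the dashed line the share over all chromosomes, 5.70%. Chromosomes 1 and 17 lie above the line with their whole interval, and 4, 6, 8 and X below it.

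Every chromosome carried at least 1 peak of 40. The tallest on each ranged from 42 fragments on chromosome X, at 43084827-43085207, to 130 on chromosome 3. Chromosome 2, with 35 tall peaks, had none above 60 fragments, the height of chr2:238769754-238770125. Chromosome 19 had the lowest autosomal maximum, 50 fragments at chr19:35497218-35497581. Chromosome 5 reached 82 at chr5:127185554-127185994, chromosome 20 reached 83 at chr20:62661892-62662321, and chromosome 10 reached 80 at chr10:60228300-60228715. The last 2 were of near-equal height but stood over backgrounds of 0.698 and 4.99 fragments, with folds of 118.85 and 16.04.

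Chromosomes 4, 7, 8, 9, 11, 14, 18, 21 and 22 had maxima between 64 and 76 fragments. Chromosome 4 reached 71 at chr4:88330562-88331054, chromosome 7 reached 73 at chr7:26041242-26041815 and chromosome 9 reached 76 at chr9:2771116-2771548. Chromosome 14 reached 68 at chr14:46254445-46254839, chromosome 18 reached 64 at chr18:20069706-20070049 and chromosome 22 reached 72 at chr22:31616240-31616640. On chromosome 8 the maximum was 65 at 128582322-128582971, on chromosome 11 it was 67 at chr11:80750817-80751354, and on chromosome 21 it was 66 at chr21:40322450-40323101. The Poisson interval of 64, 49.3 to 81.7, includes all of these maxima, so they were not resolved from one another.

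Some tall peaks of chromosome 17 lay close together. Of its 30 tall peaks, 8 lay between 60 and 65 Mb, where 37 peaks were listed, so that 21.6% were tall. This was the largest count in any 5 Mb window, of 581 that held a peak and 248 that held a tall one. Their heights were 55, 76, 40, 47, 47, 44, 43 and 45 in order along the chromosome, so all but the first 2 were close to the threshold. Their median background of 1.61 fragments compares with 1.05 for all 37 peaks there. A further 5 of 30 peaks were tall in the window from 55 to 60 Mb. Without the first window 22 of 228 peaks of chromosome 17 were tall (9.65%, exact binomial interval 6.15 to 14.2). Without both, 17 of 198 were (8.59%, 5.08 to 13.4), an interval that includes the 5.50% of the other chromosomes. These windows were singled out by their counts.

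On chromosome 1, tall peaks were more common beyond its largest peak-free interval. Before it 25 of 370 peaks were tall (6.76%, exact binomial interval 4.42 to 9.81), and after it 51 of 439 (11.6%, 8.77 to 15.0), intervals that overlap. Median background over all peaks was 0.998 fragments before it and 1.99 after it, and at the tall peaks 1.92 and 2.10. On this chromosome the background over all peaks was thus higher on the side with the larger share of tall peaks. This is a comparison of 2 sides only, and the part of background in the share was not tested. From 160 to 165 Mb, 5 of 23 peaks were tall. Median background there was 3.99 fragments at the 5 tall peaks and 1.99 over all 23. From 230 to 235 Mb, 6 of 42 were tall, with medians of 2.00 at the tall peaks and 1.99 over all 42.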

How the data were processed

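Per the submitters' processing notes, the tools named for the GATA6 and input libraries were CASAVA 1.8 and BWA 0.5.9-r16 and the build hg19; the sources used here name neither the peak caller nor its control. Per the file headers, the authors deposited for each peak a pileup (a coverage signal in whole fragments, not scaled to library size), a fold enrichment (a linear ratio over local background), and −log10 p and q values. All scores are the authors' and served only to compare peaks of this 1 list.

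Peaks on chromosomes 1 to 22 and X were sorted by summit. Local background was height divided by fold, and a background was placed on a step within 0.0005 of its value plus the rounding of the fold. Distances ran from summit to summit on 1 chromosome. Binomial intervals are exact (Clopper-Pearson), Poisson intervals exact, and intervals of a median come from order statistics, all at 95%. The neighbour search and step calls were tested on simulated data. No test was made, since the height chose the peaks and peaks are not replicates.

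The peaks and measures were chosen with earlier results of these data known. Named were the 10 tallest, the tallest of each chromosome, the 5 extremes in width, background (those tied for the fifth lowest as 1 group), summit position and isolation, and pairs within 10 kb. Planned sequence and annotation work was not run, since no hg19 genome was used here. Analyses used Python 3.11.15, pandas 2.3.3 and SciPy 1.17.1.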

Additional observations from a re-analysis of the deposited data

Results flagged for a closer look

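A peak of 55 fragments at 74330-74879 of an unlocalised contig assigned to chromosome 7 was as tall as the peaks described above but lay outside chromosomes 1 to 22 and X. Its fold was 13.7 over a background of 4.01 fragments. It was the only one of 6 peaks elsewhere to reach 40 and entered no comparison.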

How the results depend on the processing

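Differences are tall peaks minus peaks under the threshold. Of 65 values under other settings, 50 stayed within the main interval or within 1.5 times a count, 14 moved and 1 reversed. Some of the 50 could not move. The chromosome 17 share does not use the lower limit of 20. The count of tall peaks could not change with the −log10 q limit of 5, as all had at least 18.84. The summit's median distance from the middle, −2.89 points of the width, reversed to 1 bp when taken in bp, and moved to −1.96 with −log10 q of 5 or more, −0.51 against heights of 20 to 39 and −1.68 at a threshold of 50. Width, 148 bp, moved to 135 with the q limit, 82 against 20 to 39, 133 at 35 and 177 at 50. Background, 0.873 fragments, moved to 0.524 against 20 to 39 and 0.948 at 50. Distance, −17801 bp, moved to −27554 with the q limit and −7165 against 20 to 39. Tall peaks numbered 672 at 35 and 189 at 50, and chromosome 17 differed from the others by 5.83 points, or by 1.71 at 50, where the interval of −0.35 to 4.87 includes 0. The share whose nearest peak was tall differed by 1.99 points with an interval that includes 0, but by 2.65 at 35 and 3.07 without chromosomes 1 and 17 with intervals that exclude it. Under every other setting its interval included 0. Leaving out chromosomes 1 and 17, chosen after seeing the data, could be applied to 8 results. None moved beyond the main interval or, for the count of tall peaks, beyond 1.5 times. That count fell from 431 to 325, and the difference in neighbour height went from 1 fragment to 0. Libraries could not be left out, since the list holds no value per library. No paired analysis was possible because the list carries no replicate columns and the GATA6 group alone has numbered libraries. Depth is unknown, so it could not be weighed.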
